A study of Mus musculus with 20 samples.

Results

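Interferon-stimulated genes were followed in the proximal colon (PC) of mice fed increasing amounts of raw potato starch (RPS). The group was defined by name, from a list of 48 mouse genes that interferons are known to induce, and a member was kept when its Ensembl identifier had a row in the deposited count table. The list was chosen with earlier results of these data known. Of the 48 listed genes, 42 had a row among the 12701 genes of the table, and all 42 were tested. Oas2, Mx2, Ddx60, Usp18, Herc6 and Ifi44 were not analysed here.

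The mice were of the inbred C57BL/6 strain and entered the study at 3 weeks of age. All of them ate the Total Western Diet (TWD), laboratory food built to match American nutrient intake, for 6 weeks. Mice then stayed on the TWD for 3 more weeks with 0, 2, 5 or 10% RPS, a starch that largely escapes small intestinal digestion and is fermented by gut bacteria. Each of the 4 diets had 5 libraries of stranded mRNA, and the 0% RPS mice, which ate the TWD alone, were the controls.

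Type I and type III interferons are secreted proteins that cells release on sensing viral or bacterial nucleic acids. They act through receptor-bound JAK kinases to activate the factor ISGF3, which binds the interferon-stimulated response element (ISRE) in promoters. Interferon gamma, also a secreted protein, acts instead through the gamma-activated site (GAS). The induced genes encode RNA sensors, RNA-binding and RNA-degrading antiviral proteins, ubiquitin-like modifiers and GTPases of the defence against pathogens in vacuoles. In the gut a low level of this programme is present without infection.

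The 20 libraries held 20581013 to 35083751 counts, with a median of 26354926, and 3 counts in a library corresponded to 0.0855 to 0.146 CPM (counts relative to the library total), a floor that covers counting error only. Values below are counts divided by DESeq2 size factors, called normalised counts. All 8 epithelial and all 7 smooth muscle markers were in the table, as were 7 of 7 for macrophages and monocytes, 3 of 4 for all leukocytes, 4 of 6 for B and plasma cells, 2 of 8 for T and NK cells and 4 of 6 for plasmacytoid dendritic cells. Replicate 2 of the 0% RPS diet stood apart. It had the highest marker sums of all 20 libraries for smooth muscle (296506 normalised counts), macrophages (6483) and B and plasma cells (12028), against at most 265694, 3964.5 and 5485 elsewhere. Of its B and plasma cell sum, 11831 came from Jchain. Its Cd79a (110.4) and Cd79b (78.1) were below those of 5% RPS replicate 2 (196.8 and 144.4). Since these are whole tissue segments, fewer cells of a type and less RNA per cell cannot be told apart in any value below.

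The promoters of 6 members are printed because they show how the ISRE core is placed in genes with the smallest p at 10% RPS that hold it upstream of the start, and in 1 gene of similar p without it. The ISRE core was taken as GAAANNGAAA on either strand (TTTCNNTTTC on the other), searched from 250 bases before to 50 bases after the start of the canonical GENCODE transcript on GRCm39. Each line gives the 250 bases before the start, 5′ to 3′ on the strand of the gene, with the ISRE core in capitals.
Lgals9, chr11:78875799-78876048, minus strand: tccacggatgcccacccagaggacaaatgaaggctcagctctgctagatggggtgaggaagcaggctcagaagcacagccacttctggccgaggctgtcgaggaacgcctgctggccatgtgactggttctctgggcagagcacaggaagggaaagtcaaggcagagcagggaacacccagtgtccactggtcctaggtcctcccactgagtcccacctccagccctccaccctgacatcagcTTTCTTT
Ifit1, chr19:34618021-34618270, plus strand: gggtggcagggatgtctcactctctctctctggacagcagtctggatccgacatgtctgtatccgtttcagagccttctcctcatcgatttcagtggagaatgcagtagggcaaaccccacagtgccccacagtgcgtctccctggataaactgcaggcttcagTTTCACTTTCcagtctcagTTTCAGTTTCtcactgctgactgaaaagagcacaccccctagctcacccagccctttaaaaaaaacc
Oas3, chr5:120915730-120915979, minus strand: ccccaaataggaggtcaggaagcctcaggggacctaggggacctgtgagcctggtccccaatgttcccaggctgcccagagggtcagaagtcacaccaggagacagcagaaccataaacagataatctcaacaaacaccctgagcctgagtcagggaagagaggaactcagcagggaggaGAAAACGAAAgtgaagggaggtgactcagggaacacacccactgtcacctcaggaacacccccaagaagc
Ifit3, chr19:34560649-34560898, plus strand: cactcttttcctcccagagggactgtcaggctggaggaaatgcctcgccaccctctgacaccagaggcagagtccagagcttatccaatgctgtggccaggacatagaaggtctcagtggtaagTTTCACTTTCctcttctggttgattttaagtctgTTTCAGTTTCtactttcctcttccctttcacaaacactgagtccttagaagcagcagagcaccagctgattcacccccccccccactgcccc
Bst2, chr8:71990115-71990364, minus strand: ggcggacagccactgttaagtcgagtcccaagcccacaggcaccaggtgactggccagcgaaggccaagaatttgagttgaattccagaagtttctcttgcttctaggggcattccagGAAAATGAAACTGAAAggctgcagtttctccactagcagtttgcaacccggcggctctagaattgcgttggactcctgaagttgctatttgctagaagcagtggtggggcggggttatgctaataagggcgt
Lgals3bp, chr11:118292919-118293168, minus strand: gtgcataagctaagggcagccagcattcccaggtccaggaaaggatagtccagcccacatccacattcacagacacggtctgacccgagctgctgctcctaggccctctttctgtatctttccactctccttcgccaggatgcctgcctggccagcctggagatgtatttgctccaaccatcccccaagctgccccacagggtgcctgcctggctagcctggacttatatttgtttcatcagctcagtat
Ifit1 held 2 cores, starting 86 and 67 bases upstream, and Ifit3 held 2, at 126 and 92 bases. The 2 cores of Bst2 overlapped, at 132 and 126 bases. Oas3 held 1 core at 70 bases, and that of Lgals9 began 7 bases upstream and ran past the start, where the printed window ends. Lgals3bp held no match. In all, 22 of the 42 members (52.4%) held an ISRE core in the searched window, against 436 of 12682 promoters of the table (3.44%). The GAS, spelled TTCNNNGAA, which reads the same on both strands, occurred in 8 members (19.0%) and in 921 of all promoters (7.26%). These are letter matches, and binding was not measured.

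Expressed per kilobase of the canonical transcript, the members spanned a wide range. Shisa5, a membrane protein of the endoplasmic reticulum, was the most abundant at a mean of 138.6 CPM per kilobase over the 20 libraries. Lgals3bp followed with 81.2, then Lgals9 with 45.7 and the ubiquitin ligase gene Trim25 with 27.7 CPM per kilobase. Several antiviral genes were far lower, with Isg15 at 5.10, Ifit1 at 2.02, Oas3 at 1.78 and Rsad2 at 1.47 CPM per kilobase. Ifit3b was the lowest member, at 0.901 CPM per kilobase. Other antiviral genes lay between Isg15 and Trim25, among them Bst2 at 21.26, Oas1a at 14.76 and Oasl1 at 13.96 CPM per kilobase. Libraries of neighbouring genes overlapped: those of Lgals3bp ran from 67.6 to 107 CPM per kilobase, above the 36.5 to 70.4 of Lgals9 except at the edge, and those of Ifit1 (1.05 to 3.17) overlapped those of Ifit3 (1.04 to 2.92) and Oas3 (up to 3.29).

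**Figure D1:**
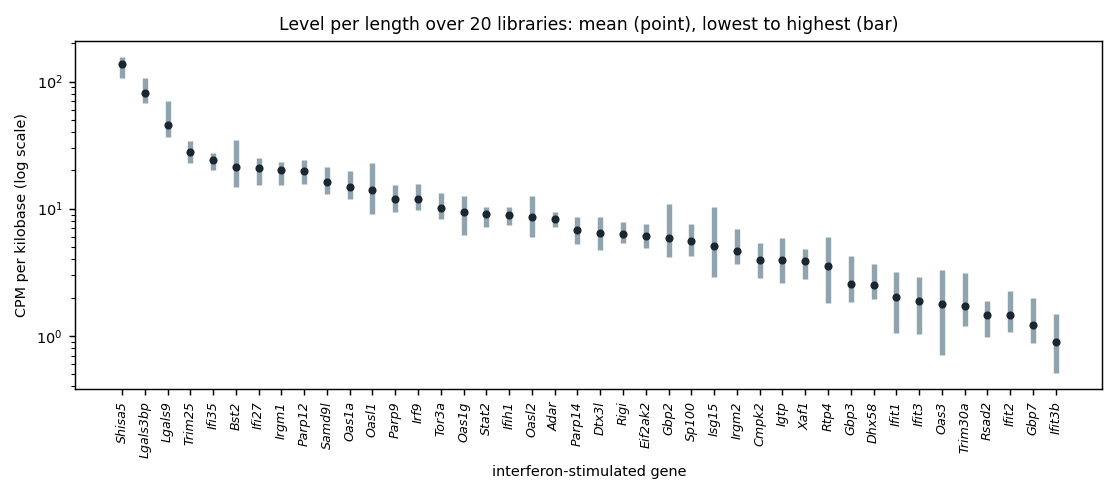
Level of each of the 42 members per kilobase of its canonical transcript, in CPM per kilobase on a log axis, with a point for the mean over the 20 libraries and a bar from the lowest to the highest library. Shisa5 stood highest at 138.6 and Ifit3b lowest at 0.901 CPM per kilobase.

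The first comparison asked which members each level of RPS altered relative to the TWD alone. A gene was called when its adjusted p did not exceed 0.05 and the diets differed at least 1.5-fold. No member was called at 2% RPS (0.0239% of all genes tested), none at 5% RPS (0.438% of all genes) and 1, Ifit1, at 10% RPS (0.917% of all genes), which is 2.38% of the members. With edgeR the counts were 0, 0 and 0, and among all genes edgeR called 0, 7 and 40. At an unadjusted p below 0.05, both DESeq2 and edgeR gave 2, 8 and 12 members at 2, 5 and 10% RPS, and among all genes DESeq2 gave 8.7, 16.6 and 18.8%. Whatever their p, 0, 1 and 2 of the 42 members were beyond 1.5-fold at 2, 5 and 10% RPS, against 2.15, 3.01 and 3.46% of all genes. Large changes were thus few in the members and in all genes, and counts this small do not set the members apart.

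Small changes were more frequent at 10% RPS. Without the fold threshold, 6 of the 42 members (14.3%) passed an adjusted p of 0.05 at 10% RPS, while 4.69% of all genes did. Lgals9, Lgals3bp, Shisa5, Trim25 and Ifit1 rose, and Sp100 fell. The share of all genes that rose by this rule was 2.76%. Because the list was chosen with earlier results of these data known, these shares describe the members and do not test an excess. No member passed at 5% RPS (1.9% of all genes) or at 2% RPS (0.0239%), and the numbers at an unadjusted p below 0.05 are those just given. edgeR's quasi-likelihood test placed none of the 6 under 0.05 at 10% RPS, with adjusted p between 0.0536 for Lgals9 and 0.113 for Ifit1. Among all genes it placed 122 under 0.05 there, against 578 in DESeq2. The log2 fold change was above 0 in 22, 28 and 31 of 42 members at 2, 5 and 10% RPS (52.4, 66.7 and 73.8%), while 47.6, 47.3 and 50% of all genes were above 0. The median log2 fold change of the members was 0.00647, 0.0477 and 0.131, beside −0.00775, −0.0091 and 0 for all genes. Without the 3 libraries numbered apart from the rest in their labels (2% RPS replicate 5, 10% RPS replicates 4 and 5), 25 of 42 members were above 0 at 10% RPS (median 0.119). The 3 comparisons share the 0% RPS libraries.

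**Figure D2:**
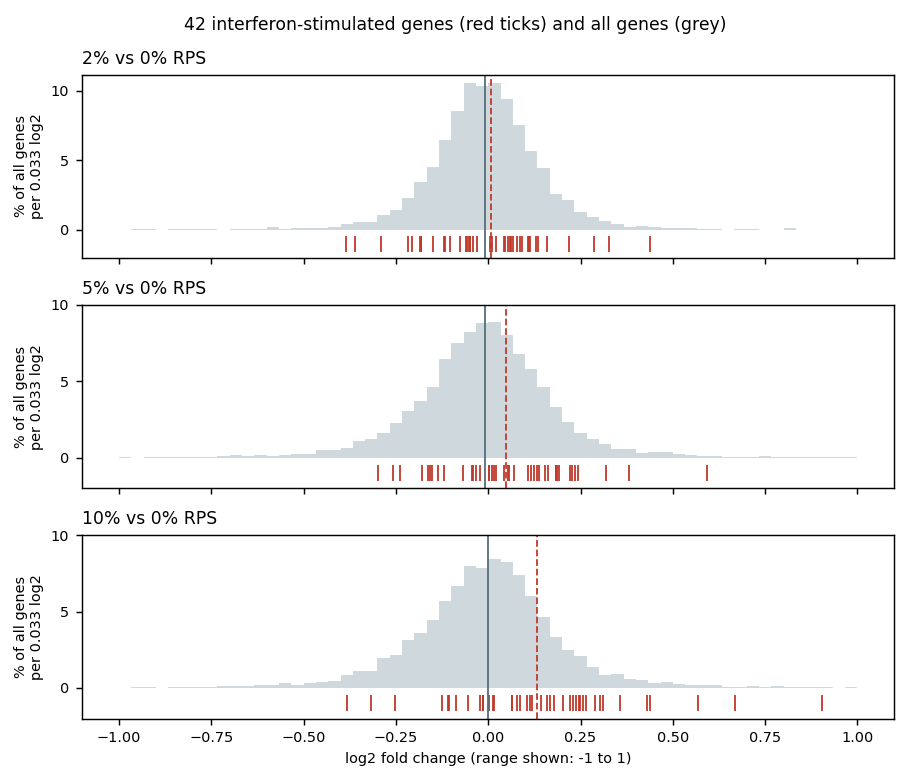
Log2 fold change at 2, 5 and 10% RPS against 0% RPS, as a histogram in percent of all genes (grey, between −1 and 1) with a red tick for each of the 42 members below it, a solid line at the median of all genes and a dashed line at that of the members. The median of the members moved from 0.00647 to 0.0477 and 0.131, and at 10% RPS the members ran from −0.38 (Ifit3) to 0.90 (Oas3).

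The sensors and ISGF3 subunits comprised Ifih1 (MDA5) and Rigi, which detect double-stranded RNA, Dhx58, their relative, and the ISGF3 subunits Stat2 and Irf9. None of the 5 passed at any starch level in DESeq2 or edgeR, and at an unadjusted p below 0.05 only Ifih1 did, at 5 and 10% RPS. Ifih1 (chr2:62425714-62476607, GRCm39, minus strand) had 1214, 1161, 1370.0, 1429 and 1389 normalised counts at 0% RPS. The libraries held 1316, 1371, 1444, 1308 and 1486 at 2% RPS and 1482, 1681, 1515, 1425 and 1356 at 5% RPS. At 10% RPS they held 1278, 1609.7, 1545, 1699 and 1608, so 4 of 5 libraries lay above every 0% RPS library and 1 lay among them. At 10% RPS Ifih1 was 0.24 higher on the log2 scale (SE 0.08, adjusted p = 0.0672), and this reached 0.30 (adjusted p = 0.00543) when 10% RPS replicate 1 was left out. Rigi (−0.01), Stat2 (0.06), Dhx58 (0.08) and Irf9 (0.12) had smaller log2 fold changes, and the median of the group was 0.08. Without the 3 libraries numbered apart, 2 of the 5 were above 0, with a median of −0.04.

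The IFIT proteins bind viral RNA that lacks the marks of host mRNA, and the 4 genes in the table did not move together. Ifit1 (chr19:34618271-34632174, GRCm39, plus strand), whose promoter held 2 ISRE cores, was the only member past 1.5-fold with an adjusted p under 0.05. Its normalised counts were 236, 262, 389, 307 and 322 at 0% RPS and 372, 212, 638, 339 and 341 at 2% RPS. They were 492, 406, 569.9, 393 and 430.3 at 5% RPS, where every library exceeded the highest 0% RPS library, and 386, 527, 602, 409 and 491 at 10% RPS, where 4 of 5 did. The mean rose from 303 ± 59.1 to 483 ± 88.2 (SD, n = 5), 1.59-fold, or 0.67 in log2 units (SE 0.21, adjusted p = 0.0427). At 5% RPS it was 0.59 (SE 0.21, adjusted p = 0.116). The call at 10% RPS was lost, at an adjusted p of up to 0.173, without any 1 of 10 libraries, namely 0% RPS replicates 1, 2, 4 and 5, 2% RPS replicate 4, 5% RPS replicates 1 and 5, and 10% RPS replicates 2, 3 and 5.

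The other IFIT genes gave no such difference. Ifit3 had the lowest log2 fold change of the 42 members at 10% RPS, −0.38 (SE 0.23, adjusted p = 0.342), and its promoter also held 2 ISRE cores, while Ifit2 had −0.25 (SE 0.20, adjusted p = 0.495). Ifit3b was at 0.09 (SE 0.28, adjusted p = 0.893). Of the 50-base windows of the Ifit3 transcripts, 31.7% also occurred in other genes, led by Ifit3b, and of those of Ifit3b 48.0% did, so their counts could have been split between them. For Ifit1 the share was 3.27%, led by Ifit1bl2, which overlaps it on the opposite strand.

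The OAS enzymes make short oligoadenylates that activate RNase L, and the Oasl genes encode their relatives. At 10% RPS all 5 OAS genes had a log2 fold change above 0 (median 0.29, with 4 of 5 above 0 without the 3 libraries numbered apart), 3 of them with an unadjusted p below 0.05, but none passed the adjusted threshold in DESeq2 or edgeR. Oas3 (chr5:120891163-120915729, GRCm39, minus strand) had 88.9, 169, 287, 160.1 and 169 normalised counts at 0% RPS and 299.8, 174, 229.8, 106 and 209 at 2% RPS. It had 238, 264, 255, 125 and 155 at 5% RPS and 318, 215, 438, 236 and 429 at 10% RPS. The 10% RPS libraries all exceeded the 0% RPS mean, and 3 of them exceeded its highest library. The difference of Oas3 at 10% RPS, 0.90 on the log2 scale (SE 0.30, adjusted p = 0.0521), was the largest of the members, and its adjusted p fell to 0.00494 without 0% RPS replicate 3, the highest control. It also passed, at 0.0266 to 0.0457, without 2% RPS replicate 1 or 4, 5% RPS replicate 4, or 10% RPS replicate 2 or 4. Oasl1 stood 0.57 higher on the log2 scale (SE 0.20, adjusted p = 0.0812), which passed without 0% RPS replicate 1 (0.0332) or 2 (0.0392) or 2% RPS replicate 3 (0.0299). Oas1a and Oas1g, at 0.29 and 0.11, shared 15.7 and 48.7% of their windows with other genes, led by each other.

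**Figure D3:**
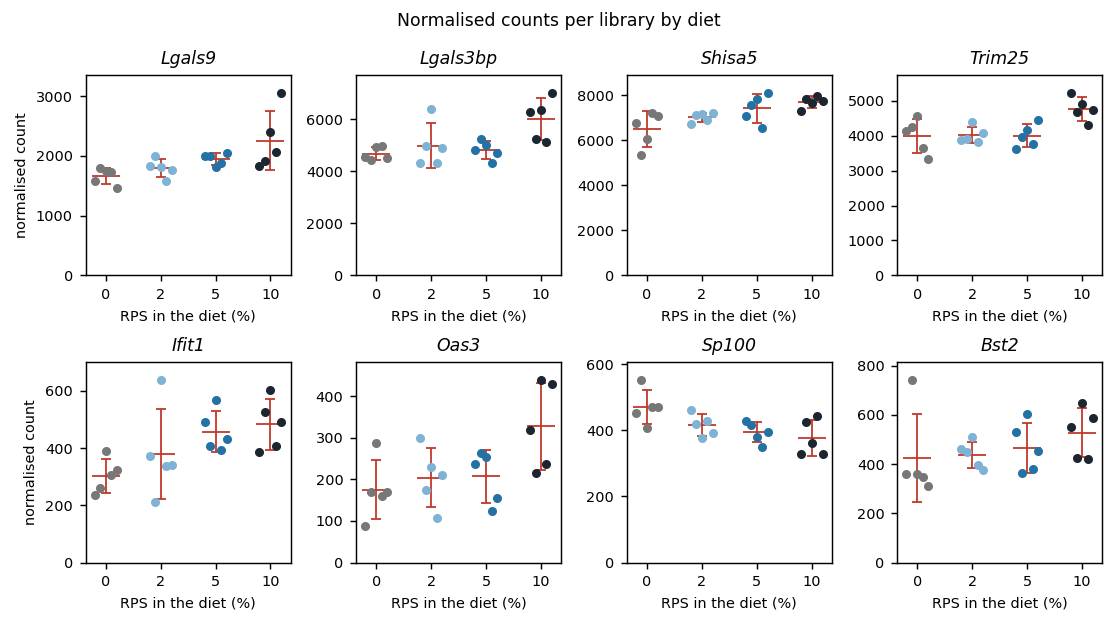
Normalised counts of selected members in each of the 20 libraries by diet, with red bars for the mean and SD of each diet (n = 5) and every axis starting at 0. For Ifit1 the 5% RPS libraries (393 to 569.9) lay above all 0% RPS libraries (236 to 389), and for Oas3 the 10% RPS libraries (215 to 438) overlapped the 0% RPS libraries (88.9 to 287).

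Among the other antiviral effectors were Eif2ak2, the kinase PKR that stops translation on binding double-stranded RNA, and Rsad2 (viperin), which makes a chain-terminating nucleotide. Adar edits adenosine in double-stranded RNA, Bst2 (tetherin) holds budding virus at the membrane, and Cmpk2, Samd9l, Rtp4 and Xaf1 completed the group. None of the 8 passed at 10% RPS in DESeq2 or edgeR, nor did any have an unadjusted p below 0.05 there. Eif2ak2 had the smallest p. Its normalised counts were 580.3, 606, 766, 719.2 and 641 at 0% RPS, 717.7, 687, 616, 666 and 774 at 2% RPS, 733, 919, 842, 639 and 575 at 5% RPS and 630.2, 810.3, 740.5, 867 and 766 at 10% RPS. The diets overlapped, with a log2 difference of 0.20 at 10% RPS (SE 0.12, adjusted p = 0.350). At 10% RPS 6 of the 8 were above 0 with a group median of 0.185, which became 5 of 8 and 0.0725 without the 3 libraries numbered apart, and Adar, the least variable member between mice, was at −0.02.

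Bst2 was examined after its values were seen, because 1 library moved its result across the threshold. Replicate 2 of the 0% RPS diet had 741 normalised counts of Bst2, while the other controls had 361, 359, 349.6 and 312. The 10% RPS libraries had 551, 426, 648, 422 and 589, all above the remaining controls. With all libraries Bst2 was 0.31 higher on the log2 scale at 10% RPS (SE 0.21, adjusted p = 0.406), and without that control it was 0.61 (adjusted p = 0.00434). With every library kept, Bst2 also passed when the smooth muscle score, the mean log2 level of the markers, entered the fit (0.48, adjusted p = 0.0406) but not with the leukocyte score (0.30, adjusted p = 0.402).

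Isg15 is a ubiquitin-like protein that is attached to other proteins, and the genes grouped with it act on ubiquitin or ADP-ribose. Of these 7 genes, 1 rose at 10% RPS and 6 did not pass, and the group median log2 fold change was 0.02, 0.15 and 0.22 at 2, 5 and 10% RPS. Trim25 (chr11:88890202-88911122, GRCm39, plus strand), a ubiquitin ligase that activates RIG-I signalling, was the gene that rose. It had 4142, 4253, 4565, 3657 and 3347 normalised counts at 0% RPS, 3868, 3921, 4396, 3834 and 4069 at 2% RPS and 3625, 3977, 4164, 3778 and 4456 at 5% RPS. At 10% RPS it had 5233, 4672, 4908, 4313 and 4744, so 4 of 5 libraries exceeded all controls, while the means at 2 and 5% RPS differed from the control mean by less than the spread between mice. Relative to the control, Trim25 differed by 0.01, 0.00 and 0.26 on the log2 scale at 2, 5 and 10% RPS (SE 0.08 and adjusted p = 0.0395 at 10%). In direct contrasts 10% RPS exceeded 2% RPS by 0.25 (adjusted p = 0.224) and 5% RPS by 0.26 (adjusted p = 0.533). Trim25 no longer passed, at an adjusted p of up to 0.164, without 0% RPS replicate 4 or 5, 2% RPS replicate 2, or 10% RPS replicate 1, 3 or 5.

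Isg15 itself was the most variable member, with a within-diet SD of 0.615 on the log2 scale. At 10% RPS it was 0.43 higher on the log2 scale (SE 0.36, adjusted p = 0.533), carried by 2 libraries with 192 and 227 normalised counts, while the other 3 had 62.0 to 83.3 and the controls 60.3 to 149. Parp9, an ADP-ribosyltransferase that pairs with the ubiquitin ligase Dtx3l, had log2 fold changes of 0.32 at 5% RPS (SE 0.10, adjusted p = 0.0586) and 0.25 at 10% RPS (adjusted p = 0.126). At 5% RPS Parp9 passed without 0% RPS replicate 2 or 3, 5% RPS replicate 4 or 5, or 10% RPS replicate 1, at an adjusted p of 0.0184 to 0.0453. Parp9 and Dtx3l overlap on opposite strands, so their counts could be mixed if counting ignored strand, which is not given in the sources used here. With both orientations searched, 7.61% of the Parp9 windows and 8.51% of the Dtx3l windows occurred in other genes. Across the 41 members averaging 100 normalised counts or more the median within-diet SD was 0.208, against 0.147 over 11541 such genes.

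The interferon-inducible GTPases, which take part in defence against pathogens in vacuoles and are strongly induced by interferon gamma, comprised Gbp2, Gbp3, Gbp7, Igtp, Irgm1 and Irgm2. None of the 6 passed at any level in DESeq2 or edgeR, and at an unadjusted p below 0.05 there was 1, Gbp7, lower, at 2% RPS and 0 at 5 and 10% RPS. Igtp, with the smallest p at 10% RPS, had 258, 352, 177, 216 and 200.1 normalised counts at 0% RPS, 252, 192, 279, 268 and 162 at 2% RPS, 254, 267, 228, 196 and 260.3 at 5% RPS and 254, 209.5, 328, 259 and 279 at 10% RPS. The diets overlapped fully, with a log2 difference of 0.14 at 10% RPS (SE 0.18, adjusted p = 0.701). The position of the group relative to the control depended on 0% RPS replicate 2, which held the highest value of all 20 libraries in 9 members, including Gbp2, Gbp3, Gbp7, Igtp and Irgm2. With it 3 of the 6 genes had a log2 fold change above 0 at 10% RPS (median −0.03), and without it 6 of 6 did (median 0.12), though again none passed. With all libraries and the smooth muscle score as a covariate, 5 of 6 were above 0 (median 0.06), Igtp at 0.29 and Gbp7 alone below 0, and with the leukocyte score 2 of 6 were (median −0.06), none passing in either fit. The part of the macrophage sum and of the B and plasma cell sum of that library, the latter mostly Jchain, was not tested.

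The remaining 7 members, Lgals9, Lgals3bp, Shisa5, Sp100, Tor3a, Ifi35 and Ifi27, held 4 of the 6 that passed at 10% RPS. Lgals9 (chr11:78853800-78875798, GRCm39, minus strand) encodes galectin-9, a secreted lectin that binds beta-galactosides on immune cells. It had 1579, 1794, 1740.0, 1731 and 1466 normalised counts at 0% RPS and 1836, 1994, 1809, 1578 and 1757 at 2% RPS. At 5% RPS it had 1992, 2003, 1806, 1882 and 2046, and at 10% RPS 1829, 1915, 2397, 2071 and 3056, so that the 0% RPS libraries overlapped neither the 5% nor the 10% RPS libraries. The mean rose from 1662 ± 136 to 2254 ± 498 (SD, n = 5), 1.36-fold, or 0.44 in log2 units (SE 0.11, adjusted p = 0.00726). It passed in all 20 fits that left out 1 library. Without the 3 libraries numbered apart, which include the highest one, it was 0.30 (adjusted p = 0.0975).

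Lgals3bp (chr11:118280716-118292918, GRCm39, minus strand) encodes a secreted glycoprotein that binds galectin-3. Its normalised counts were 4528, 4421, 4937, 4983 and 4525 at 0% RPS and 6270.4, 5229.5, 6361, 5108 and 7018 at 10% RPS. These did not overlap, while the 2% RPS libraries (4307 to 6402) and 5% RPS libraries (4299.9 to 5258) spanned the controls. At 10% RPS Lgals3bp was 0.36 higher on the log2 scale (SE 0.11, adjusted p = 0.0246) and it lost the threshold, at an adjusted p of up to 0.136, without 0% RPS replicate 5 or 10% RPS replicate 1, 3 or 5.

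Shisa5 (chr9:108867633-108887029, GRCm39, plus strand) also separated 10% from 0% RPS. It had 6749, 5323, 6049, 7198 and 7085 normalised counts at 0% RPS, 6717 to 7202 at 2% RPS, 6514 to 8099 at 5% RPS and 7278, 7833, 7629, 7937 and 7746 at 10% RPS. Every 10% RPS library exceeded the highest control, by little. This difference of 0.25 on the log2 scale (SE 0.07, adjusted p = 0.0318) lost the threshold, at up to 0.0961, without 0% RPS replicate 3 or 10% RPS replicate 2, 3, 4 or 5. Shisa5 overlaps Atrip and Trex1 on the opposite strand, and whether counting used strand is not given in the sources used here.

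Sp100 (chr1:85577709-85637719, GRCm39, plus strand), a component of PML nuclear bodies, was the 1 member that fell. It had 453, 552, 408, 471 and 472 normalised counts at 0% RPS and 328, 425, 363, 444 and 328 at 10% RPS, with 376 to 461 at 2% RPS and 350.4 to 427 at 5% RPS. The 0% and 10% RPS libraries overlapped, and 3 of 5 at 10% RPS lay below the lowest control. At 10% RPS the log2 difference of Sp100 was −0.32 (SE 0.10, adjusted p = 0.0468), and it passed in 6 of 20 fits that left out 1 library. The libraries without which it did not pass were 0% RPS replicates 1, 2, 4 and 5, 2% RPS replicates 2, 4 and 5, 5% RPS replicates 1, 2, 3 and 5, and 10% RPS replicates 1, 3 and 5, at an adjusted p of 0.0523 to 0.188. Of its windows 6.56% occurred in other genes. Tor3a, a torsin ATPase, was 0.26 higher on the log2 scale (SE 0.09, adjusted p = 0.0631), which passed without 0% RPS replicate 2 (0.0434) or 10% RPS replicate 2 (0.0245). Ifi35 was at 0.11 and Ifi27 at −0.11.

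**Figure D4:**
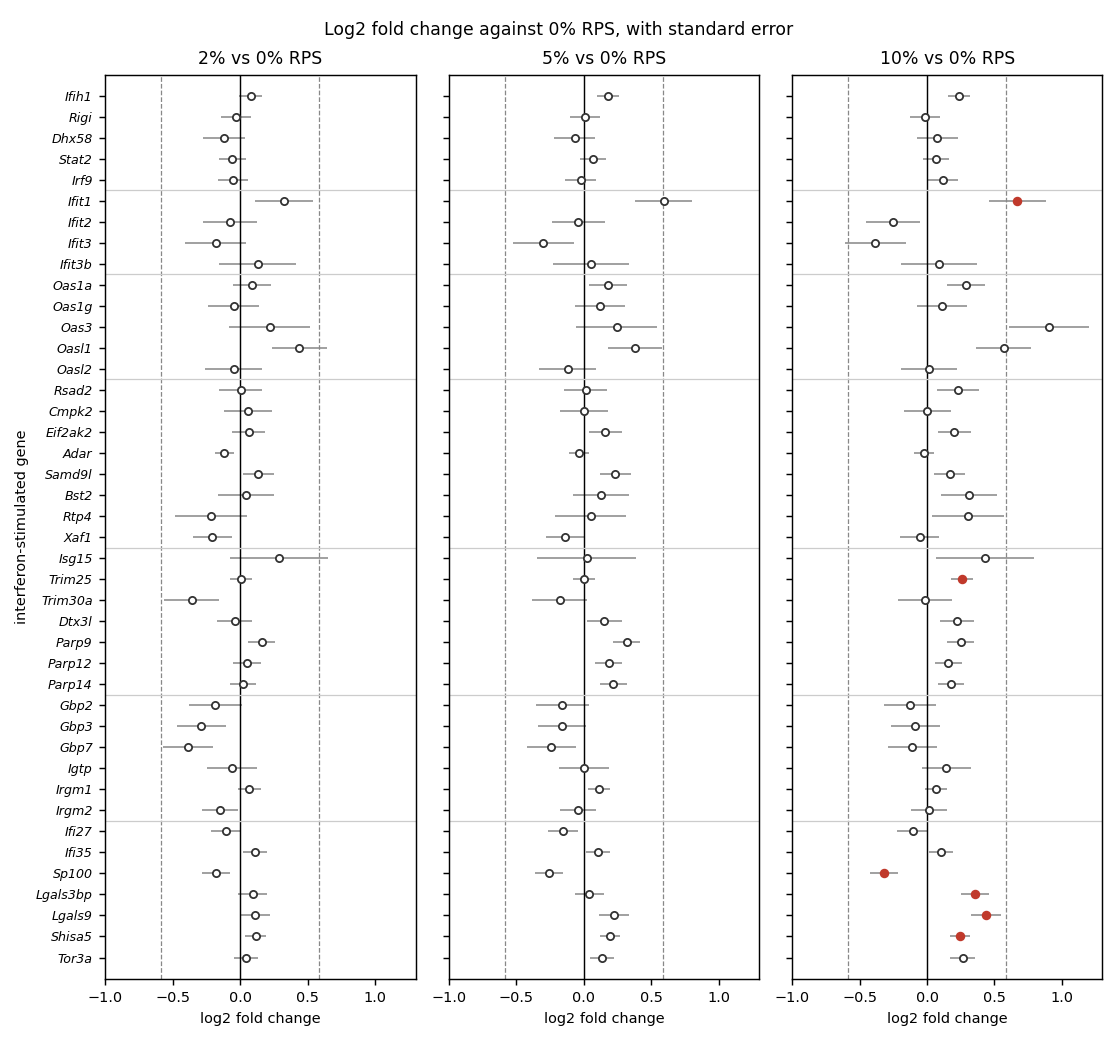
Log2 fold change of the 42 members at 2, 5 and 10% RPS against 0% RPS, ordered by role, with bars of 1 SE, filled points for an adjusted p of 0.05 or less and dashed lines at 1.5-fold. The 6 filled points are at 10% RPS, 5 above 0 (Lgals9, Lgals3bp, Shisa5, Trim25 and Ifit1) and 1 below (Sp100).

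Counting the members whose libraries did not overlap those of the TWD alone gave a view that does not rest on a model. At 2% RPS there was none (0.737% of 12348 genes averaging 10 normalised counts or more). At 5% RPS there were 2 of 42, Ifit1 and Lgals9 (2.44% of genes), and at 10% RPS 3 of 42, Lgals3bp, Lgals9 and Shisa5 (2.56%). All were higher than the control, Lgals9 appears at both levels, and both levels share the 0% RPS libraries.

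The trend over the 4 diets, with RPS percent entered as a number, used all libraries at once. It passed in 8 of 42 members (19.0%), all rising, against 4.29% of all genes, and 2.4% of all genes rose. These were Lgals9, with a slope of 0.04 log2 units per percent RPS (adjusted p = 0.00264), Tor3a with 0.03 (0.0294), Lgals3bp with 0.03 (0.0313), Shisa5 with 0.02 (0.0326), Trim25 with 0.03 (0.0335), Oas3 with 0.09 (0.0414), Ifih1 with 0.02 (0.0439) and Ifit1 with 0.06 (0.0450). Oas3, Ifih1 and Tor3a did not pass in the contrast of 10 with 0% RPS. The member share is descriptive here too, since the list was chosen with earlier results known. In edgeR 1 member passed, Lgals9 (adjusted p = 0.0375), among 165 of all genes. DESeq2 and edgeR each gave 14 members at an unadjusted p below 0.05, 13 rising and 1 falling, where 19.1 and 18.3% of all genes met that limit. Single libraries moved the count of rising members. It was 1 without 10% RPS replicate 5, and 2 without 0% RPS replicate 1 or 5 or 10% RPS replicate 3. It was 3 without 0% or 2% RPS replicate 4, and 5 without 2% RPS replicate 2, 5% RPS replicate 1 or 10% RPS replicate 4. Lgals9 passed in all 20 fits that left out 1 library. Sp100 passed as falling in 5 of them, without 0% RPS replicate 3, 2% RPS replicate 3 or 5, or 10% RPS replicate 2 or 4 (adjusted p = 0.0135 to 0.0477).

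Starch levels were also compared with each other. No member was called between 10 and 2% RPS (0.0557% of all genes) or between 10 and 5% RPS (0.00796%) by DESeq2 or edgeR, and both gave 6 and 3 members at an unadjusted p below 0.05, all higher at 10% RPS. Among all genes that share was 9 and 4.11% in DESeq2 and 8.52 and 3.72% in edgeR. The log2 fold change was above 0 in 34 of 42 members against 2% RPS (81%) and in 30 of 42 against 5% RPS (71.4%), and in 50.7 and 50.9% of all genes.

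Libraries of 1 diet differed in how many members they held above each member's mean over the 20 libraries. At 10% RPS the number ran from 13 of 42 (replicate 1) to 36 (replicate 5), at 5% RPS from 5 (replicate 4) to 34 (replicate 1), at 2% RPS from 7 (replicate 4) to 27 (replicate 1) and at 0% RPS from 6 (replicate 1) to 24 (replicate 2). The ranges of the 4 diets overlapped. The highest of the 20 libraries was a 10% RPS library in 18 members and a 0% RPS library in 12, 9 of these in replicate 2, while the lowest was a 0% RPS library in 21 members, 10 of them in replicate 1, and a 10% RPS library in 3. All genes were not counted in these ways, so whether the pattern is particular to the members cannot be told.

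**Figure D5:**
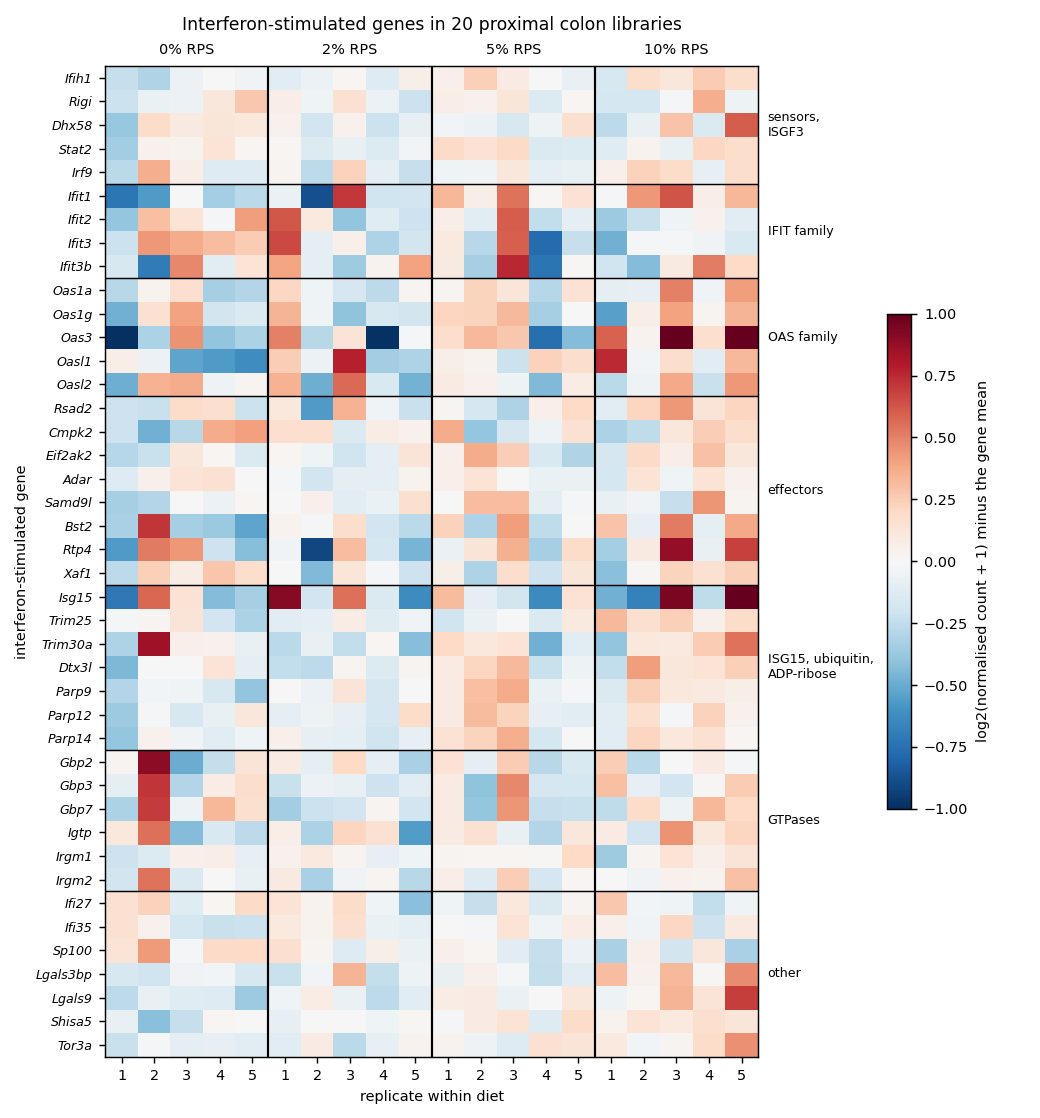
Log2 normalised count of each member in each library minus the mean of that member over the 20 libraries, with the colour scale limited to −1 and 1. Replicate 1 of the 0% RPS diet, with 6 of 42 members above their mean, and 5% RPS replicate 4, with 5, held mostly low values, and 10% RPS replicate 5 had 36 members above.

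Members with and without the ISRE core in the searched window were set side by side. Of the 22 with it, 16 had a log2 fold change above 0 at 10% RPS (median 0.10) and 2 rose, Lgals9 and Ifit1. Of the 20 without it, 15 were above 0 (median 0.15), 3 rose, Lgals3bp, Shisa5 and Trim25, and 1 fell, Sp100. The difference between these groups was not tested.

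Of 73 other genes of the pathway, 48 were in the table. The 13 interferon genes were not analysed here. None of the 9 receptors and kinases and none of the 8 negative regulators passed at 2, 5 or 10% RPS in DESeq2 or edgeR. Of these regulators, Trex1 had at most 1.1 normalised counts in any library, too few to show a change. At 10% RPS Jak1, Jak2 and Samhd1 had an unadjusted p below 0.05 with a log2 fold change above 0, and Ptpn6 below 0 (DESeq2). At 10% RPS, 6 of the 48 rose and none fell, and at 5% RPS 5 rose and none fell, beside the shares of all genes given above. Without the 3 libraries numbered apart 2 of the 48 rose, Irf7 and Psme2, and without 0% RPS replicate 2 Irf2 fell beside the 6 that rose. In edgeR 3 of the 48 passed an adjusted p of 0.05 at 10% RPS, Irf7, Psme2 and Ido1, and none at 2 or 5% RPS, where DESeq2 gave 7 higher and 0 lower and 11 higher and 2 lower at an unadjusted p below 0.05. Irf7, the factor that drives type I interferon genes and is itself interferon-induced, had 2512, 2427, 2414, 2084 and 1985 normalised counts at 0% RPS and 7641, 3479.9, 7146, 3099.7 and 5414 at 10% RPS. All 10% RPS libraries exceeded all controls, and the log2 fold change between the diets was 1.23 (SE 0.20, adjusted p = 1.21e-06). At 5% RPS that of Irf7 was 0.32 (SE 0.20, adjusted p = 0.423). Direct contrasts placed 10% RPS above 2% RPS by 0.91 (adjusted p = 0.0166) and above 5% RPS by 0.91 (adjusted p = 0.0337), which edgeR did not call (0.370 and 0.9998), whereas it called 10 against 0% RPS (0.0105).

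Zbp1, a sensor of Z-form nucleic acids, rose at 5% RPS (log2 fold change 1.08, SE 0.29, adjusted p = 0.0205) and at 10% RPS (1.05, SE 0.29, adjusted p = 0.0138). Among interferon gamma targets, 3 of 11 rose at 10% RPS: the immunoproteasome genes Psmb8 (0.52, adjusted p = 0.00626) and Psme2 (0.37, adjusted p = 0.00139), and Ido1, which degrades tryptophan (1.18, adjusted p = 0.00124). Stat3 also rose at 10% RPS (0.39, adjusted p = 0.0190), and at 5% RPS Irf8, Zbp1, Psmb8, Psmb10 and Psme2 did.

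Cell type markers were read beside these values. At 10% RPS all 8 epithelial markers had a log2 fold change above 0 (0.10 to 0.47), of which Epcam and Krt20 rose, though neither passed without the 3 libraries numbered apart. All 7 smooth muscle markers (median −0.22) and all 7 macrophage markers (median −0.105) were below 0, and none passed. Without 0% RPS replicate 2 all 7 macrophage markers were above 0 (median 0.16), as were 2 of 7 smooth muscle markers (median −0.03), again none passing. The leukocyte list was above 0 in 3 of 3 genes, with a median of 0.105 with that library and 0.297 without it. The 4 B and plasma cell markers moved from 2 of 4 above 0 to 4 of 4, of which Cd79a passed, while Mzb1 had at most 8.3 normalised counts. Both T and NK cell markers were below 0 with that library (median −0.215) and without it (median −0.336). Of the 4 plasmacytoid dendritic cell markers 2 were above 0 in either case. Summed epithelial markers ran from 253804 to 298241 normalised counts at 0% RPS and from 270803 to 347008 at 10% RPS, and summed leukocyte markers from 559 to 1253 and from 841 to 1009. With the smooth muscle score as a covariate 8 members passed at any fold at 10% RPS, all higher, and with the leukocyte score 7, 6 higher and 1 lower. Lgals9, Lgals3bp, Shisa5, Trim25 and Ifit1 passed with either covariate, Bst2 and Oasl1 (0.64, adjusted p = 0.0206) with the smooth muscle score only, Oas3 passed with both (adjusted p = 0.0475 and 0.0408), and Sp100 passed with the leukocyte score (0.00224) but not with the smooth muscle score (0.0670).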

How the data were processed

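RNA sequencing libraries from the PC of 20 mice were analysed, 5 per diet, assigned to diets from the treatment in their labels. Each cell of the deposited table is a raw read count for an Ensembl gene, and the authors did not normalise these counts. Per the study's methods, the authors removed bases below a quality of 30 and reads with more than 2 ambiguous bases from single-end reads of 50 bases, and aligned and counted them in CLC Genomics Workbench on GRCm39. The annotation, the use of strand, the treatment of multi-mapped reads and the way the 12701 genes were selected are not given in the sources used here, and counts of overlapping or near-identical genes are uncertain: 8 members overlap another gene on the same strand and 23 on the opposite strand. Each label carries its own number, taken as 1 mouse.

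All 20 libraries were fitted with DESeq2 1.42.0 in R 4.3.3, with diet as the only term, median-of-ratios size factors, Wald tests of unshrunken fold changes, Cook filtering and independent filtering aimed at 0.05. Adjusted p values (Benjamini-Hochberg, over all genes) are from DESeq2 unless edgeR is named. A call needed an adjusted p not above 0.05 together with a 1.5-fold change, and the percentage of RPS was also fitted as a number, with no fold threshold. The alternatives were edgeR 4.0.16 (TMM, quasi-likelihood), TMM size factors, a filter of 10 or more counts in 5 or more libraries (12374 genes), no independent or Cook filtering, only the diets compared, a smooth muscle or leukocyte marker score as covariate, a fold of 2, omission of 3 libraries with label numbers outside the run, and omission of each of the 20 libraries. The steps were tested on simulated counts. Gene symbols, positions and starts came from GENCODE M39 (12682 identifiers matched), and 50-base windows of the members' transcripts were searched in the transcripts of other genes. Motifs were read from the GRCm39 sequence, and promoters were printed only where the match begins upstream of the start. Among the members of smaller p this leaves out Ifih1, Oas1a and Eif2ak2, whose matches begin after the start. Figures were drawn with Python 3.11.15, pandas 2.3.3 and matplotlib 3.10.9.

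The members, gene lists and rule for named genes were chosen with earlier results of these data known. Values of every library are given for the members called at 5 or 10% RPS and for the member with the smallest p at 10% RPS in each role group, and fold change, SE and adjusted p for members with an adjusted p of 0.05 or less in a contrast with 0% RPS, the 3 lowest log2 fold changes at 10% RPS, Irf7 and Zbp1. A further gene of this rule is not reported here. Others are named with their group, and Bst2, Isg15, Parp9, Oasl1 and Tor3a were described further after their values were seen.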

Additional observations from a re-analysis of the deposited data

How the results depend on the processing

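No paired analysis was possible because no replicate numbers in the labels link mice of different diets. No member was called at 2% against 0% RPS, 10% against 2% RPS or 10% against 5% RPS under any alternative run. At 10% RPS, where 1 member was called, edgeR gave 0, the smooth muscle covariate 3, the leukocyte covariate 2, the omission of the 3 libraries outside the number run 0, a fold of 2 gave 0, and leaving out 1 library gave 0 to 2. The 6 members passing at any fold became 0 with edgeR, 0 without those 3 libraries, 2 with only the diets compared, and 1 to 7 without 1 library (3 without 0% RPS replicate 4, 2 without 0% RPS replicate 5, 1 without 10% RPS replicate 3 or 5). At 5% RPS only the fit of the diets compared gave 1 member, by either rule, with 0 to 1 called and 0 to 2 passing at any fold without 1 library. The 8 rising members of the trend became 1 with edgeR, 1 without the 3 libraries, 1 over the 2, 5 and 10% RPS diets only, and 1 to 9 without 1 library, where the count in either direction ran from 1 to 10. Among all genes edgeR called 40 at 10% RPS, passed 122 at any fold there and 165 in the trend. DESeq2 with all libraries gave 113, 578 and 538. For the other alternatives all genes were not counted, so a change over the whole table cannot be told from 1 in the members. Fewer samples enter the fits that omit libraries or diets, and for the other settings the cause was not tested.

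Directions of small values at 5% RPS reversed. Trim25 was 0.0024 and became −0.0035 with the leukocyte covariate and −0.0547 to 0.0552 without 1 library. Ifit2 was −0.04 and became 0.0529 with the smooth muscle covariate and −0.2097 to 0.0455 without 1 library, and Igtp was 0.0024 and ran from −0.0898 to 0.179. Independent filtering aimed at 0.1, added after seeing the data, changed no count of members. The omission of 0% RPS replicate 2 for the role groups, marker lists and pathway lists was likewise chosen after seeing the data. The SE of a member's log2 fold change at 10% RPS ran from 0.07 (Adar) to 0.36 (Isg15) with 5 libraries per diet, and a p above the threshold does not show that diets were alike.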
